A study of Mus musculus with 6 samples.

Results

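The genes described here encode the TGF-β and activin ligands, their extracellular binders and their receptors in the mouse melanoma line D4M-3A. They are Tgfb1, Tgfb2, Tgfb3, Tgfbr1, Tgfbr2, Tgfbr3, Inhba, Inhbb, Fst and Gdf15, 10 of the 43043 genes listed in each expression table, and they were chosen by name. RNA sequencing compared 3 control samples (Ctrl), which were transduced with an empty CRISPR-Cas9 construct, with 3 samples of Nfkbiz knockout cells (Nfkbiz KO), which carried a construct against Nfkbiz. Nfkbiz encodes IκBζ, a nuclear regulator of NF-κB target genes. Both groups were lentivirally transduced and puromycin-selected, and the line was kept in RPMI-1640 with 10% FCS. Whether the knockout line came from 1 clone is not given in the sources used here. The replicates were described as independent experiments, so p-values measure the spread between such experiments, estimated jointly for both groups. The sources used here do not say that the lines were made separately for each.

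TGF-β ligands are secreted in a latent form bound to their own propeptide and to latent TGF-β-binding proteins in the matrix. Once released, they bind the type II receptor encoded by Tgfbr2, which recruits and activates the type I receptor encoded by Tgfbr1, and the receptors phosphorylate the transcription factors SMAD2 and SMAD3. Betaglycan, the product of Tgfbr3, has no kinase and presents ligand to the other receptors, above all the TGF-β2 ligand. Activins are dimers of inhibin β chains, with activin A made of the product of Inhba and activin B of that of Inhbb, and they reach the same SMADs through their own receptors. Follistatin, encoded by Fst, binds and neutralizes activins. GDF15 is a distant relative of these ligands that acts on the receptor GFRAL in the hindbrain. Melanoma cells are known to secrete TGF-β and activins, both of which can dampen T cell responses.

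Each sample had between 32219900 and 44927203 reads counted on genes. Levels are given in TPM, a unit corrected for transcript length and depth that the authors computed from exon reads, so levels of different genes can be compared in it. Changes were tested on the read counts with edgeR's quasi-likelihood test and are given as log2 fold change of Nfkbiz KO against Ctrl. These counts also take in reads outside exons. Per sample, 2105 to 2271 genes had reads counted but a value of 0 in RPKM, another unit computed from exons. The adjusted p was corrected over the 14419 genes that passed a filter on low counts, all 10 genes among them. The targeted gene Nfkbiz had 63.4 to 75.2 TPM in Ctrl and 34.7 to 35.1 TPM in Nfkbiz KO (log2 fold change -0.98, standard error 0.0559, adjusted p = 5.98e-08). Edited transcripts are counted in these values too. Of 10 melanocyte lineage markers, 9 were under 1 TPM in every sample and Sox10, Tyr and Mlana were listed at 0, so the labelled cell type is not visible in its defining genes. The 10 fibroblast markers had a summed level of 1006.8 to 1120.7 TPM in Ctrl and 848.5 to 897.5 TPM in Nfkbiz KO, most of it from the collagen genes Col1a1, Col1a2 and Col3a1, while 4 of them (Lum, Thy1, Fap and Fbln1) were under 1 TPM in every sample. Of the 10, 8 were tested and 4 were lower in Nfkbiz KO, beside 18.4% of all genes tested. Leukocyte (1.83 to 4.14 TPM) and epithelial (0.105 to 0.375 TPM) markers had low summed levels in all samples. Endothelial markers were low too, with summed levels of 0.556 to 0.833 TPM in Ctrl and 1.34 to 1.86 TPM in Nfkbiz KO, without overlap. Of these, 2 were tested and 1 was higher in Nfkbiz KO, beside 18.2% of all genes tested. The part of these genes in the results was not tested. In bulk RNA, fewer cells of a type and less RNA per cell cannot be told apart.

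The stretches of 250 bases before the annotated transcription start are shown for Fst and Inhbb, which fell most among the 10 genes, and for the TGF-β ligands whose RNA levels differed without overlap in TPM, Tgfb2 and Tgfb1. They were read from GRCm39 at the canonical GENCODE transcripts, 5′ to 3′ on the strand of the gene. Capitals mark a match to the NF-κB consensus, the only motif so marked.
Fst (chr13:114595522-114595771, minus strand): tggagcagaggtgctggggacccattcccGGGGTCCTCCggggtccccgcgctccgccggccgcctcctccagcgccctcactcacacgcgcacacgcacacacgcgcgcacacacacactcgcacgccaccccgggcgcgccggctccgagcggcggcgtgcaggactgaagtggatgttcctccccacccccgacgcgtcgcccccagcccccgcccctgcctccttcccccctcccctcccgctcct
Inhbb (chr1:119350022-119350271, minus strand): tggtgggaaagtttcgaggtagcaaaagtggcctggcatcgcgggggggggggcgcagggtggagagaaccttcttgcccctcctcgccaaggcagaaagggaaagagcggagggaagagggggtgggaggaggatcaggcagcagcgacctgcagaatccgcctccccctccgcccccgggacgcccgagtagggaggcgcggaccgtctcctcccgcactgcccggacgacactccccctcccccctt
Tgfb2 (chr1:186438295-186438544, minus strand): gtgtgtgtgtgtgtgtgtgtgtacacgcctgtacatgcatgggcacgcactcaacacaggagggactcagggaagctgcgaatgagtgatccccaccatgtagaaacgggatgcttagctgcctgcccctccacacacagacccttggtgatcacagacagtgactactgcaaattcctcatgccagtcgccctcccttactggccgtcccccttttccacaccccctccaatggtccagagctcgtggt
Tgfb1 (chr7:25386140-25386389, plus strand): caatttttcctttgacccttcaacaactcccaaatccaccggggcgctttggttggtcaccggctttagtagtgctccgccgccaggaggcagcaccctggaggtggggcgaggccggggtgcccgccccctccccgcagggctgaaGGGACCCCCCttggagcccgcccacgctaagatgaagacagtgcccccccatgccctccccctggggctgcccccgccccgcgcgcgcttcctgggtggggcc
Counted from the start, with bases before it negative, the match lies at -221 to -212 in Fst and at -103 to -94 in Tgfb1. In a window from 250 bases before to 50 bases after the start, on both strands, 2 of the 10 genes held the NF-κB consensus, compared with 8.96% of 21751 protein-coding promoters. These windows showed no NF-κB consensus for Inhbb and Tgfb2. Of the other letters searched, CAGACA, which holds a SMAD-binding core, was found in Tgfb2 and Tgfbr2 and in 18.9% of all promoters, and GGCGCC was found in Tgfbr1 and in 12.4%. The AP-1 motif TGANTCA (7.14% of all promoters) was found in none of the 10. Neither was GTCTAGAC (0.267%), which holds the SMAD-binding core on both strands, nor TGACGTCA (2.45%) or TGATGNAA (3.84%). A match describes these letters only and says nothing of binding in these cells.

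In Nfkbiz KO cells, Tgfb2 and Gdf15 rose, whereas Fst, Inhbb, Tgfbr3 and, by the smallest margin, Tgfbr2 fell. Tgfb1, Tgfb3, Tgfbr1 and Inhba did not pass the test. Thus 6 of the 10 genes were at an adjusted p of 0.05 or less, 2 higher and 4 lower, where 36.6% of all genes tested passed, 18.2% higher and 18.4% lower. A count of 6 in 10 is read against that high background, and the genes were chosen with earlier results of these data known. The median log2 fold change of the 10 genes was -0.17, compared with -0.02 over all genes, and the median size of the change was 0.27 compared with 0.19. On log2 TPM with limma, 5 genes passed, 3 higher and 2 lower, with Tgfb1 past the test and Tgfbr2 and Tgfbr3 not. The same scale moved the split of all calls from 2627 higher and 2647 lower to 3004 higher and 1327 lower.

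No gene of the set met the threshold by which the study defined regulated genes, which asks for more than a 2-fold change with an adjusted p up to 0.05 and for a difference above 4, taken here as TPM. Of all genes tested, 1.79% met it, 0.756% higher and 1.03% lower. The count was 0 with DESeq2 and with limma too, and 0 without the difference, when 5.92% of all genes passed. At an unadjusted p of 0.05 or less, 8 of the 10 genes passed edgeR's test, as did 44.8% of all genes tested. With a lower bar, a 1.5-fold change and an adjusted p up to 0.1, 3 genes passed, Tgfb2 upwards and Inhbb and Fst downwards, where 12.6% of all genes passed, 5.81% higher and 6.74% lower. On log2 CPM, which are read counts scaled to the size of the library, 9 of the 10 genes had groups that did not overlap, 3 higher and 6 lower, beside 48.4% of the genes tested, 23.9% higher and 24.5% lower. Inhba was the exception. The exact permutation test on 3 samples against 3 cannot go below p = 0.1, and it gave that smallest value for these 9 genes and p = 0.3 for Inhba (two-sided, log2 CPM).

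**Figure D1:**
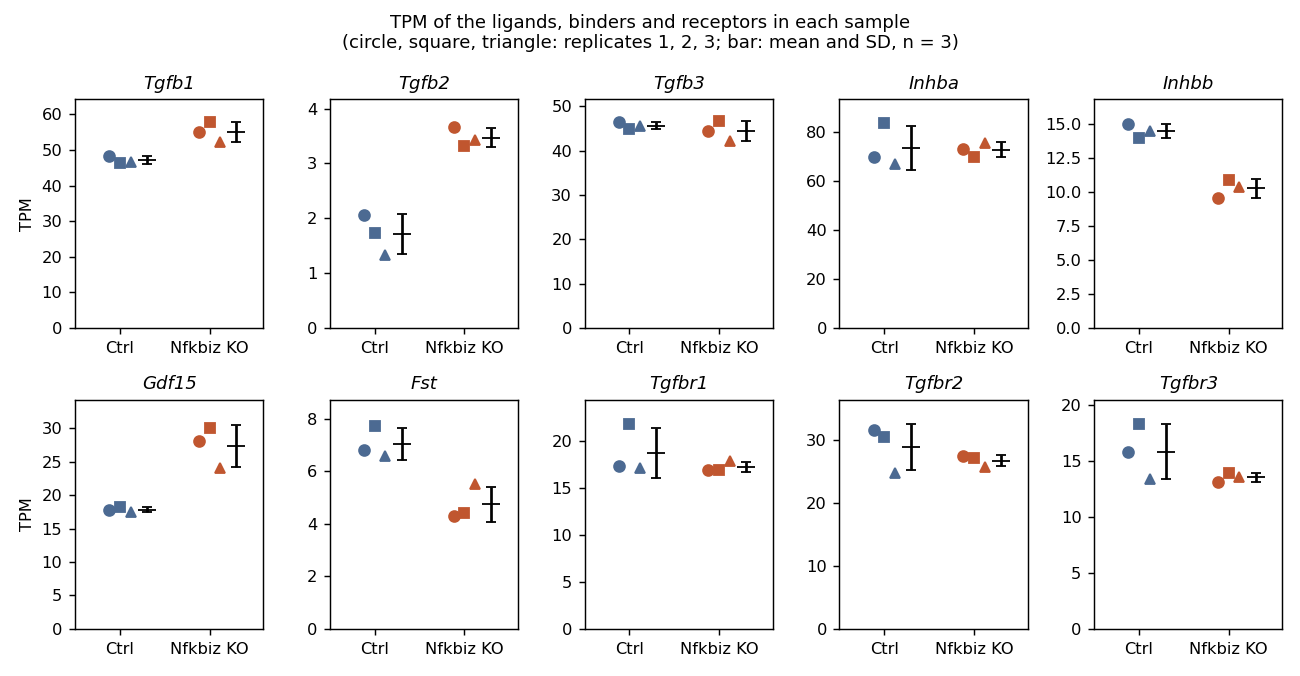
Level of each gene in TPM, on an axis from 0, in 3 Ctrl (blue) and 3 Nfkbiz KO (orange) samples, with circles, squares and triangles for replicates 1, 2 and 3 and a bar for the mean and SD. The groups are apart for Tgfb1, Tgfb2, Inhbb, Fst and Gdf15, and they overlap for Tgfb3, Inhba and the receptors.

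Among the TGF-β ligands, the scarcest one changed most. Tgfb2, which encodes TGF-β2, had 2.06, 1.73 and 1.33 TPM in Ctrl replicates 1, 2 and 3 and 3.67, 3.32 and 3.42 TPM in Nfkbiz KO replicates 1, 2 and 3. Every Nfkbiz KO sample was above every Ctrl sample. The mean rose from 1.71 ± 0.366 to 3.47 ± 0.179 TPM (SD, n = 3 each), and the log2 fold change on counts was 0.93 (standard error 0.162, 95% confidence interval 0.57 to 1.28, adjusted p = 0.000754), a fold change of 1.90. The gene rested on 106 to 274 reads per sample, and leaving out any 1 sample kept its change between 0.77 and 1.12. It lies on chromosome 1 of GRCm39 (186354985 to 186438294, minus strand, 7 exons).

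Tgfb1 and Tgfb3 were present at much higher levels, close to each other in Ctrl, and neither passed the test. Tgfb1, encoding the main TGF-β isoform of most tissues, had 48.4, 46.3 and 46.7 TPM in Ctrl and 55.1, 57.8 and 52.3 TPM in Nfkbiz KO. The TPM groups did not overlap (47.1 ± 1.14 and 55.0 ± 2.74 TPM, SD, n = 3 each). On counts, however, the log2 fold change was 0.11 (standard error 0.0614, 95% confidence interval -0.02 to 0.24, adjusted p = 0.18) and did not pass. With limma it passed on log2(TPM + 1) (0.22, adjusted p = 0.0188) but not on log2(RPKM + 1) (0.14, adjusted p = 0.0798). Tgfb3 had 46.5, 44.9 and 45.6 TPM in Ctrl and 44.5, 46.6 and 42.1 TPM in Nfkbiz KO, and these ranges overlapped. Its log2 fold change on counts was -0.16 (standard error 0.0604, 95% confidence interval -0.29 to -0.03, adjusted p = 0.0603), and it passed only without Ctrl replicate 2 (-0.19, adjusted p = 0.0295). Tgfb1 is on chromosome 7 (25386390 to 25404506, plus strand) and Tgfb3 on chromosome 12 (86102756 to 86126301, minus strand), each with 7 exons. Tgfb3 shares 179 exon bases with Ttll5 on the opposite strand, a gene with 864 to 1114 reads per sample, and counting did not use strand, so reads of this overlap cannot be assigned. Exons of antisense long noncoding RNAs also overlap exons of Tgfb3, Tgfb2, Tgfbr2, Inhbb, Fst and Gdf15, and those of them listed in the tables had at most 7 reads per sample. Those over Inhbb (122 exon bases) and Gdf15 (295 exon bases), and the one sharing 108 exon bases with Fst, were not listed by name, so their reads are not known.

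The makeup of the ligand RNA does not depend on the scaling of a sample, because each isoform was divided by the sum of all 3 in the same sample. Tgfb1 made up 49.9%, 49.8% and 49.9% of the summed TPM in Ctrl and 53.4%, 53.6% and 53.5% in Nfkbiz KO. The share of Tgfb3 was 48.0%, 48.3% and 48.7% in Ctrl and 43.1%, 43.3% and 43.1% in Nfkbiz KO, and that of Tgfb2 was 2.13%, 1.86% and 1.42% compared with 3.56%, 3.09% and 3.50%. In all 3 cases the groups were far apart relative to their spread (exact two-sided permutation test, p = 0.1 each, the smallest possible). There were 1.04, 1.03 and 1.02 Tgfb1 transcripts per Tgfb3 transcript in the Ctrl samples and 1.24 in each Nfkbiz KO sample. A ratio shows that the isoforms changed unequally and not which one changed. Summed over all isoforms, Ctrl had 94.5 ± 2.18 TPM and Nfkbiz KO had 102.9 ± 4.95 TPM (SD, n = 3 each). The highest Ctrl sample had 97.0 TPM and the lowest Nfkbiz KO sample 97.8 TPM. Unlike the shares, this sum depends on the scaling of a sample. The median log2 fold change of all genes was 0.06 on log2(TPM + 1) with limma and -0.02 on counts with edgeR.

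**Figure D2:**
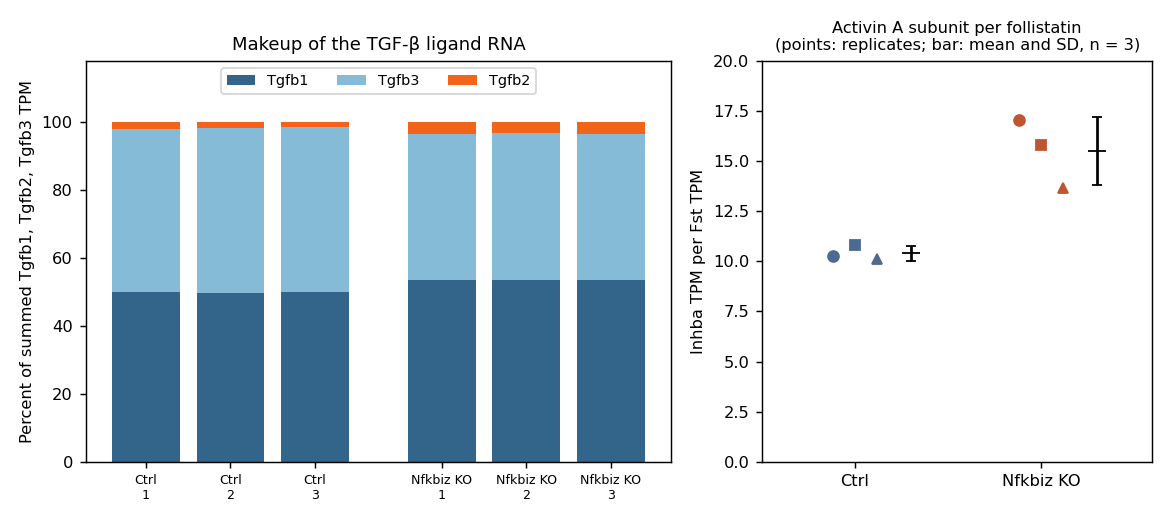
Left, percent of the summed Tgfb1, Tgfb2 and Tgfb3 TPM that each isoform made up in each sample (stacked bars from 0). Right, Inhba TPM per Fst TPM in each sample, with replicates as circle, square and triangle and a bar for mean and SD (n = 3). The mean Tgfb1 share was 49.9% in Ctrl and 53.5% in Nfkbiz KO, and Inhba per Fst was 10.1 to 10.8 in Ctrl and 13.7 to 17.0 in Nfkbiz KO.

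Of the activin chains, only the less abundant one changed by this test. Inhba, which encodes the βA chain of activin A, was the most abundant of the 10 genes, with 69.6, 83.7 and 66.7 TPM in Ctrl and 73.1, 69.7 and 75.4 TPM in Nfkbiz KO. All Nfkbiz KO values lay within the Ctrl range. The log2 fold change was -0.10 (standard error 0.063, 95% confidence interval -0.24 to 0.04, adjusted p = 0.248), and it did not pass in any alternative fit. Inhbb, which encodes the βB chain of activin B, had 14.99, 13.9 and 14.5 TPM in Ctrl and 9.54, 10.9 and 10.4 TPM in Nfkbiz KO. The groups were well apart, and the mean fell from 14.5 ± 0.519 to 10.3 ± 0.68 TPM (SD, n = 3 each). On counts it changed by -0.60 on the log2 scale (standard error 0.0893, 95% confidence interval -0.80 to -0.41, adjusted p = 0.000207), or 1.52-fold lower, and it stayed between -0.66 and -0.54 when any 1 sample was dropped. Inhba per Inhbb was 5.08 ± 0.796 in the controls and 7.10 ± 0.643 in the knockout (SD, n = 3 each, exact two-sided permutation test, p = 0.1). Inhba lies on chromosome 13 (16186373 to 16206206, plus strand, 3 exons) and Inhbb on chromosome 1 (119343193 to 119350021, minus strand, 2 exons).

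Fst, which encodes an activin antagonist, fell along with Inhbb. Fst had 6.80, 7.73 and 6.60 TPM in Ctrl and 4.29, 4.41 and 5.52 TPM in Nfkbiz KO. Each Nfkbiz KO sample was below each Ctrl sample, with replicate 3 the closest. The mean fell from 7.04 ± 0.603 to 4.74 ± 0.679 TPM (SD, n = 3 each), which on counts was -0.65 on the log2 scale (standard error 0.113, 95% confidence interval -0.89 to -0.40, adjusted p = 0.000734), or 1.57-fold lower. The gene had 182 to 410 reads per sample, and its change stayed between -0.77 and -0.58 when any 1 sample was dropped. In each sample, Inhba exceeded Fst several-fold, by 10.2, 10.8 and 10.1 TPM per TPM in Ctrl and 17.0, 15.8 and 13.7 in Nfkbiz KO. For both activin chains together, the ratio to Fst was 12.5 ± 0.161 in the controls and 17.7 ± 1.92 in the knockout (SD, n = 3 each, exact two-sided permutation test, p = 0.1). These are ratios of RNA, and no protein was measured in these libraries. The ratios take Fst as the only antagonist and leave out the follistatin-like gene Fstl3, which is in the activin list below. Fstl3 averaged 5.54 TPM over the controls and 5.22 TPM over the knockout samples. Its change did not pass edgeR's test (log2 fold change -0.20, adjusted p = 0.363). Fst lies on chromosome 13 (114588731 to 114595521, minus strand, 6 exons).

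Gdf15 rose in all 3 Nfkbiz KO samples. It had 17.8, 18.2 and 17.5 TPM in Ctrl and 28.1, 30.0 and 23.99 TPM in Nfkbiz KO. The Ctrl samples were close together and all below the lowest Nfkbiz KO sample. The mean rose from 17.8 ± 0.383 to 27.4 ± 3.07 TPM (SD, n = 3 each), the largest TPM difference of the 10 genes (9.51), and on counts it changed by 0.50 on the log2 scale (standard error 0.0953, 95% confidence interval 0.29 to 0.70, adjusted p = 0.00144), or 1.41-fold. The change stayed between 0.42 and 0.58 when any 1 sample was dropped. Its receptor gene Gfral had 0 to 1 reads per sample, and Ret, the co-receptor of GFRAL, had 0 to 9 reads. Gdf15 lies on chromosome 8 (71082038 to 71091537, minus strand), and its canonical transcript (71082038 to 71085111) has 2 exons.

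Log2 fold changes of the receptor genes lay between -0.34 and -0.19, and their Ctrl replicates were spread more widely than their Nfkbiz KO replicates. Tgfbr3, encoding betaglycan, had 15.8, 18.3 and 13.4 TPM in Ctrl and 13.1, 13.9 and 13.6 TPM in Nfkbiz KO, so Ctrl replicate 3 lay within the Nfkbiz KO range. In RPKM, the unit before division by the sample's sum, the same gene had 4.48, 5.15 and 4.08 in Ctrl and 3.61, 3.85 and 3.76 in Nfkbiz KO, without overlap. The summed RPKM was 304500 in Ctrl replicate 3 and 275106 to 284089 in the other 5 samples, which lowers every TPM value of that replicate. On counts Tgfbr3 changed by -0.34 on the log2 scale (standard error 0.0806, 95% confidence interval -0.52 to -0.17, adjusted p = 0.00562), and it passed without any 1 of the samples (-0.43 to -0.25). On the exon-based scales with limma the change did not pass (-0.20 on log2(TPM + 1), adjusted p = 0.226, and -0.23 on log2(RPKM + 1), adjusted p = 0.0744).

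Both kinase receptors were at or near the threshold. Tgfbr2, the type II receptor that binds ligand first, had 31.5, 30.5 and 24.7 TPM in Ctrl and 27.4, 27.0 and 25.6 TPM in Nfkbiz KO, and Ctrl replicate 3 was the lowest of all 6 samples. The log2 fold change on counts was -0.20 (standard error 0.0714, 95% confidence interval -0.36 to -0.05, adjusted p = 0.0435). This call was lost in 10 of 17 alternatives, among them the fits without Ctrl replicate 1 (-0.13, adjusted p = 0.177), without Ctrl replicate 2 (-0.19, adjusted p = 0.0805) and without any 1 of the Nfkbiz KO replicates (-0.21 to -0.18, adjusted p = 0.1 to 0.15), and it was strongest without Ctrl replicate 3 (-0.28, adjusted p = 0.00115). Tgfbr1, the type I receptor that phosphorylates SMADs, had 17.4, 21.9 and 17.2 TPM in Ctrl and 17.0, 16.9 and 17.9 TPM in Nfkbiz KO. The TPM groups overlapped, and only Ctrl replicate 2 stood above the rest. Its log2 fold change was -0.19 (standard error 0.0761, 95% confidence interval -0.35 to -0.02, adjusted p = 0.0707), and it passed in 3 of 17 alternatives, which were the fits without Ctrl replicate 1 (-0.24, adjusted p = 0.0474), without Ctrl replicate 3 (-0.23, adjusted p = 0.0309) and with no filter on low counts (-0.18, adjusted p = 0.0446). Without Ctrl replicate 2, the highest sample, the change of Tgfbr1 was -0.09 (adjusted p = 0.294). Tgfbr1 lies on chromosome 4 (47353134 to 47414931, plus strand, 9 exons), Tgfbr2 on chromosome 9 (115913361 to 116004800, minus strand, 7 exons) and Tgfbr3 on chromosome 5 (107249402 to 107437623, minus strand, 17 exons).

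**Figure D3:**
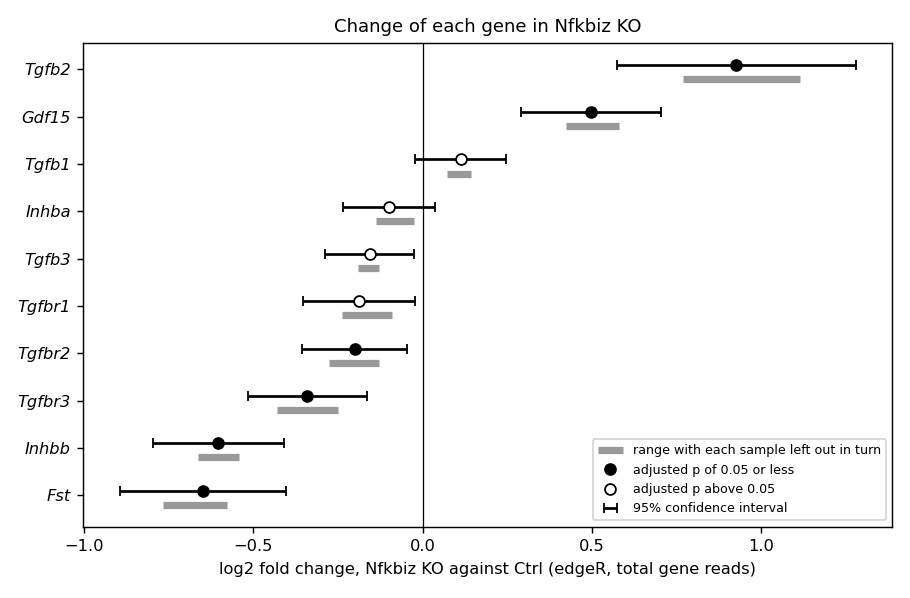
Log2 fold change of each gene in Nfkbiz KO against Ctrl, with the 95% confidence interval (black) and the range with each sample left out in turn (grey); filled points passed an adjusted p of 0.05. Tgfb2 (0.93) and Gdf15 (0.50) lie to the right of 0, and Fst (-0.65), Inhbb (-0.60), Tgfbr3 (-0.34) and Tgfbr2 (-0.20) to the left.

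By level in TPM, the order in Ctrl was Inhba, Tgfb1, Tgfb3, Tgfbr2, Tgfbr1, Gdf15, Tgfbr3, Inhbb, Fst and Tgfb2. Tgfb1 and Tgfb3 overlapped in range in Ctrl, as did each neighboring pair from Tgfbr1 to Inhbb, and the other neighbors were apart in all 3 samples. In Nfkbiz KO the order was Inhba, Tgfb1, Tgfb3, Gdf15, Tgfbr2, Tgfbr1, Tgfbr3, Inhbb, Fst and Tgfb2. Only Gdf15 and Tgfbr2 overlapped there, with Gdf15 higher in 2 of 3 samples. Gdf15 was thus level with Tgfbr1 in Ctrl and with Tgfbr2 in Nfkbiz KO, and Tgfb2 was last in both groups.

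The other genes of the pathway were taken in 5 lists of 69 genes in all, written by role. Of these, 58 were tested and 30 passed (51.7%), 14 higher and 16 lower, beside the background of 36.6%, and on log2(TPM + 1) 15 were higher and 9 lower. The lists were chosen with earlier results of these data known, so the share that passed is not independent of those results. The median log2 fold change over the 58 was -0.04. Another 11 were too low to test, 6 of them with 0 reads in every sample.

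In the list of latency and activation genes, 3 of 12 tested rose, 3 fell and 6 did not pass (median log2 fold change -0.04). Among the latent TGF-β-binding proteins, which tether the ligands to the matrix, Ltbp1 rose from 122.6 ± 9.08 to 185.0 ± 0.701 TPM (log2 fold change 0.49, adjusted p = 1.52e-05) and Ltbp4 from 48.2 ± 5.02 to 65.5 ± 3.74 TPM (0.35, adjusted p = 0.00189). Ltbp2 fell from 62.0 ± 8.88 to 33.9 ± 2.24 TPM (-0.98, adjusted p = 9.2e-07). Ltbp2 is a matrix protein of the same family that does not bind latent TGF-β. Mmp14, a membrane protease that can release TGF-β from its latent complex, rose from 160.9 ± 3.59 to 237.0 ± 4.82 TPM (0.41, adjusted p = 0.000431). Thbs1, encoding the activator thrombospondin, fell by 0.32 on the log2 scale (adjusted p = 0.00326), and Ltbp3 by 0.21 (adjusted p = 0.0195). The call was lost for Thbs1 on both log2 TPM scales and for Ltbp3 in 6 of 17 alternatives, among them without Ctrl replicate 1 and without Nfkbiz KO replicate 1 or 3.

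Of the other activin, inhibin and GDF15 genes, 7 of 15 were tested, 1 rose, 1 fell and 5 did not pass (median -0.12). Bambi, a pseudoreceptor without kinase domain that dampens TGF-β and activin signaling, rose from 3.33 ± 0.375 to 7.47 ± 0.443 TPM (log2 fold change 1.06, adjusted p = 8.4e-06), and it was the 1 gene of the 58 past the study's threshold. Inha, encoding the inhibin α chain that pairs with β chains to form the activin antagonist inhibin, fell from 9.11 ± 0.553 to 6.34 ± 1.16 TPM (-0.77, adjusted p = 0.00105). The activin receptor genes Acvr1b, Acvr2a and Acvr2b had log2 fold changes of -0.07, -0.12 and -0.27 and did not pass.

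Among 6 other TGF-β receptors and co-receptors, 4 rose, 1 fell and 1 did not pass, with a median log2 fold change of 0.34. Cd109, a membrane protein that binds TGF-β and promotes receptor turnover, rose from 46.1 ± 4.03 to 85.9 ± 0.811 TPM (0.80, adjusted p = 1.6e-07). Eng, encoding the co-receptor endoglin, rose from 195.9 ± 18.2 to 268.3 ± 3.63 TPM (0.35, adjusted p = 0.000371). The type I receptor gene Acvrl1, at 7 to 42 reads per sample, was called higher (1.13, adjusted p = 0.0478), but this was lost in 9 of 16 alternatives, among them every fit without 1 sample except that without Ctrl replicate 2. The calls of Tgfbrap1 (0.23, adjusted p = 0.0293) and of the co-receptor gene Nrp1 (-0.25, adjusted p = 0.0253) were each lost in 8 of 17, and both without Ctrl replicate 1 and without any 1 of the Nfkbiz KO samples. The Tgfbrap1 call was also lost without Ctrl replicate 3 and that of Nrp1 without Ctrl replicate 2.

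Of 15 SMAD core and brake genes, 2 rose, 3 fell and 10 did not pass (median 0.01). Smurf1, a ubiquitin ligase for SMADs and receptors, rose from 47.1 ± 5.01 to 67.6 ± 2.02 TPM (log2 fold change 0.40, adjusted p = 0.000183). Pmepa1, a feedback inhibitor that is itself induced by TGF-β, fell from 47.7 ± 0.845 to 39.6 ± 1.16 TPM (-0.37, adjusted p = 0.000185). Smad3 fell from 64.0 ± 6.61 to 56.5 ± 1.03 TPM (-0.29, adjusted p = 0.00213), a call lost on both log2 TPM scales. Skil, a SMAD corepressor, had -0.23 (adjusted p = 0.0104), lost in 4 of 17 alternatives, 1 of them without Nfkbiz KO replicate 2. Zfyve9, encoding the SMAD anchor SARA, had 0.19 (adjusted p = 0.033), lost in 5, among them without Ctrl replicate 3 and without each of the Nfkbiz KO samples. Smad2 (0.001), Smad4 (0.07) and the feedback inhibitor Smad7 (-0.01) did not pass on the same scale.

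The list of TGF-β response genes was split, with 4 of 18 tested higher, 8 lower and 6 not past the test (median -0.12). Tgfbi, a secreted matrix protein named for its induction by TGF-β, rose from 88.3 ± 5.93 to 161.4 ± 3.20 TPM (log2 fold change 0.76, adjusted p = 3.06e-06), and Postn, encoding the matrix protein periostin, from 1.12 ± 0.186 to 1.96 ± 0.159 TPM (0.73, adjusted p = 0.00215). The integrin gene Itga5 (0.33, adjusted p = 0.000411) and the transcription factor gene Snai2 (0.27, adjusted p = 0.00696) rose as well. In the other direction, Col1a1, a collagen chain that is also among the fibroblast markers above, fell from 367.2 ± 25.2 to 262.8 ± 17.4 TPM (-0.58, adjusted p = 1.18e-05), and Ccn2, encoding connective tissue growth factor, from 98.7 ± 7.41 to 74.6 ± 6.89 TPM (-0.50, adjusted p = 0.000172). The repressor gene Bhlhe40 fell by 0.67 on the log2 scale (adjusted p = 9.2e-07). Angptl4, a lipase inhibitor with 10 to 71 reads per sample, fell from 1.43 ± 0.307 to 0.273 ± 0.0349 TPM (-2.36, adjusted p = 9.02e-05). All errors in these lists are SD over 3 samples per group, and several of these genes also respond to other pathways.

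**Figure D4:**
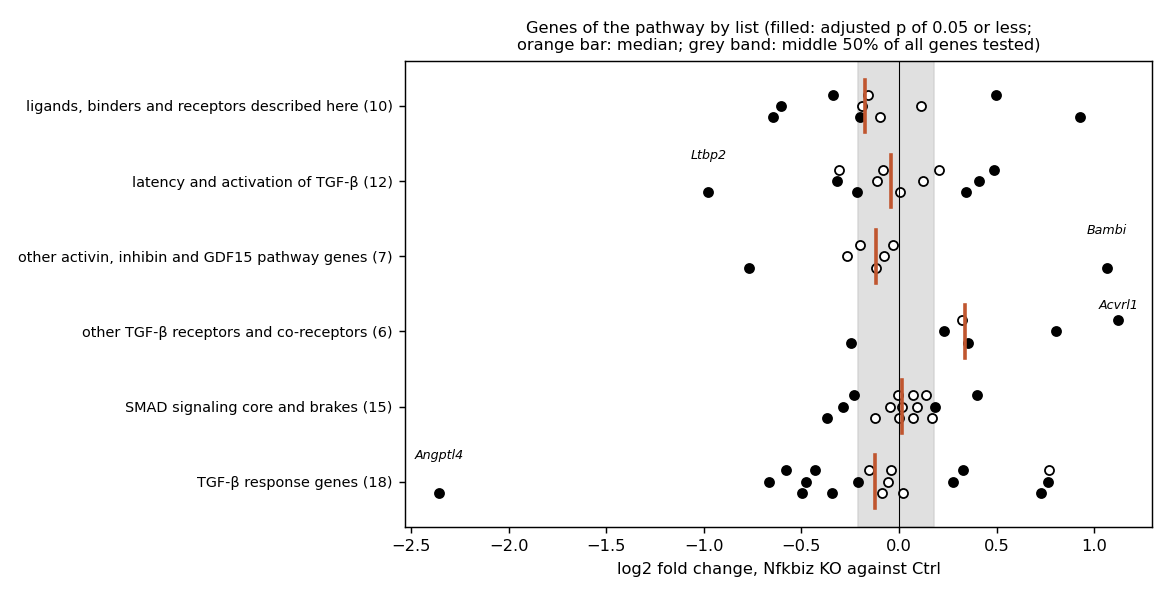
Log2 fold change (Nfkbiz KO over Ctrl) of each tested gene, by list, with the number tested in brackets; filled points passed an adjusted p of 0.05, orange bars are medians and the grey band holds the middle 50% of all genes tested (-0.21 to 0.18). The medians lie within the band except for the other receptors and co-receptors (0.34), and Angptl4 (-2.36) lies farthest from 0.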

How the data were processed

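RNA of D4M-3A cells from 3 Ctrl and 3 Nfkbiz KO samples was sequenced as read pairs. According to the methods of the study, CLC Genomics Workbench was used with GRCm39, whereas the submitters' processing notes list GRCm38, and the files hold no coordinates. The authors deposited raw counts per gene (total and unique reads, 96.5% to 96.9% unique) without use of strand, and TPM and RPKM from exons, written with decimal commas. Each table listed 43043 genes, and 0 columns were of no sample.

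Counts were tested with edgeR 4.0.16 in R 4.3.3: TMM factors (0.978 to 1.011), filterByExpr (minimum count 10, minimum total 15), quasi-likelihood fit without covariates, and Benjamini-Hochberg adjustment over 14419 genes. The standard error is the log2 fold change divided by the square root of F, and confidence intervals are not adjusted for the number of genes. Intervals and tests treat the 3 samples per group as replicates. They use an estimate of spread shared by both groups, although Ctrl pairs differed more than Nfkbiz KO pairs. The study gives no unit for its difference of 4 and names no count test, so TPM and edgeR were used. Counts of replicates differed by more than counting noise. Chi-square per degree of freedom was 25.8 to 65.9 among Ctrl pairs and 3.41 to 5.89 among Nfkbiz KO pairs. No sample therefore looked like the library of another sequenced again, but separate libraries of the same culture would not be seen this way. The fit was tested on simulated data. Alternatives were unique reads, DESeq2 1.42.0, the likelihood-ratio test, other factors and filters, limma 3.58.1 on the authors' deposited TPM and RPKM values as log2(TPM + 1), log2(TPM + 0.1) and log2(RPKM + 1), a replicate block, and each sample left out in turn. On log2(TPM + 1) and log2(RPKM + 1), a log2 fold change understates that of low genes.

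All 10 genes are named, and of each pathway list at most 4 genes per direction, those with the largest log2 fold change at an adjusted p of 0.05 or less. Other list genes named (Acvr1b, Acvr2a, Acvr2b, Fstl3, Gfral, Ret, Smad2, Smad4 and Smad7) were chosen for their role after their values were seen. The genes and lists were chosen with earlier results of these data known. Positions and sequences came from GRCm39 with GENCODE vM39, matched by symbol (10 of 10). Positions span the whole gene, and exon numbers are those of the canonical transcript. Plots used Python 3.11.15 with pandas 2.3.3 and matplotlib 3.10.9. Human cells and tumors were not analysed here.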

Additional observations from a re-analysis of the deposited data

How the results depend on the processing

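Over 17 alternatives for each of the 10 genes (170 values), 151 kept their direction and side of the threshold, 13 lost the call, 6 gained it and none changed sign. Tgfb2, Gdf15, Inhbb and Fst passed in all 17. The number of genes past the test ranged from 4 to 7 against 6, that of list genes from 24 to 32 against 30, and that of all genes from 4213 to 5638 against 5274. With each sample left out, it ranged from 5 to 7 for the 10 genes, from 23 to 30 for the lists and from 3798 to 5533 for all genes, and from 248 to 276 for all genes past the study's threshold (258), which 0 of the 10 genes met. On log2(RPKM + 1), 145 genes met that threshold, 64 higher and 81 lower, on a scale that shrinks low genes. With a 1.5-fold change and an adjusted p up to 0.1, 3 of the 10 genes passed. The replicate block gave 6 of the 10 genes (2 higher, 4 lower), 0 past the study's threshold, 31 list genes and 5087 of all genes, 4945 of them shared, with 257 past the study's threshold. Deviations of same-numbered samples did not correlate (r = 0.04, -0.02 and 0.03), so the numbers were not taken as pairs. Exon reads in place of gene reads were not run, since no column of exon reads was used here.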
